A study of Homo sapiens with 6 samples.

Results

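The cytosolic ribosomal protein genes were followed in 3 acute myeloid leukemia cell lines after knockdown of NCAM1. They were chosen by symbol: a name of the form RPL or RPS with a number, with or without a final A or X, or 1 of RPLP0, RPLP1, RPLP2 and RPSA, and a mean normalized read count of 100 or more over the 6 libraries. Of 77 symbols with such a name 76 passed this minimum, 46 of the large and 30 of the small ribosomal subunit, among 34114 genes in the table and 19575 genes tested. The member just inside the minimum was RPS10, at a mean of 172. The rule used no difference between groups.

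MOLM-14, NOMO-1 and SKM-1 are established lines of human acute myeloid leukemia. In each, cells had received an shRNA directed at NCAM1 (the surface protein CD56) or a scrambled shRNA as control, and messenger RNA was sequenced at 72 h. The knockdown and the control group hold 3 libraries each, 1 per line, so there was no replicate within a line and a p-value across lines measures the spread between lines. How many hairpins were used, and whether the cells of a line came from 1 culture, is not stated in the labels. A normalized read count is the number of reads of a gene divided by 1 factor per library.

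The libraries held 41916991 to 47688779 gene-assigned reads. NCAM1 was at 1896, 312 and 101 normalized counts in the MOLM-14, NOMO-1 and SKM-1 knockdown libraries, against 6004, 1163 and 12537 in their controls. The SKM-1 pair stood apart: among 13301 genes with a mean of 100 or more, 27.5% differed at least 2-fold between its libraries, against 4.15% in MOLM-14 and 7.18% in NOMO-1. Of the myeloid markers listed, PTPRC (CD45) was at 14053 to 23654 and SPI1 (PU.1) at 4791 to 9577 over the 6 libraries. Others were low: CEBPA was at 19.8 to 241, CD14 at 27.4 or less and CD68 at 10.4 or less. The myeloid list of 11 genes summed to 73101 in the SKM-1 knockdown library and 765922 in its control, with MPO (myeloperoxidase) at 6166 and 728824. Without MPO the sum was higher in the knockdown library, at 66935 against 37098, and ITGAM (CD11b) was at 20862 against 1757. The list did not move together in SKM-1. Of its 9 tested genes, MPO among them, 5 were higher and 4 lower, with CD33 at 1764 against 3136 and FCGR1A at 1667 against 2673. In NOMO-1 the myeloid list summed to 59884 in the knockdown library and 107472 in the control, and in MOLM-14 to 36188 and 42062. The lists for T or NK, B, erythroid, and epithelial or stromal cells summed to 770, 119, 9.18 and 1309 in the SKM-1 knockdown library, against 1954, 565, 9.14 and 606 in the SKM-1 control. In NOMO-1 they summed to 4176, 2269, 4.56 and 3579 in the knockdown library, against 5402, 552, 21.7 and 2628 in the control, with MS4A1 (CD20) at 1988 and 144. In MOLM-14 they summed to 1032, 115, 34.4 and 679 in the knockdown library, against 1279, 106, 26.8 and 394 in the control. Of their defining genes HBB and DCN were at 3.05 or less in every library, while CD3D (2961 and 3789) and KRT8 (2961 and 1913) were present in the NOMO-1 knockdown and control libraries, and EPCAM (1203 and 549) in those of SKM-1. The part of these differences in the values below was not tested.

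A cytosolic ribosome has a small subunit, which reads the messenger RNA, and a large subunit, which joins amino acids. Each of its proteins is needed in about equal number, and their messenger RNAs are among the most abundant of a growing cell. Most begin with a C followed by an unbroken run of pyrimidines, the terminal oligopyrimidine or TOP motif, through which the mTOR pathway and the RNA-binding protein LARP1 control their translation and stability. Loss of 1 copy of several of these genes causes Diamond-Blackfan anemia, a failure of red cell production, and unassembled RPL5 and RPL11 bind MDM2, which restrains p53.

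The starts of the genes that carried the results are shown because the TOP motif lies there. Of the 76 members 62 matched a start in a RefSeq table of GRCh38.p14. A C at the start followed by at least 4 pyrimidines (C or T), read on the gene's own strand, was found at a start of 46 of these 62 (74.2%), against 5.14% of the 27305 symbols in that table. Each line below gives 20 bases before and 20 from the annotated start, 5′ to 3′, with the unbroken pyrimidine run from a C at the start in capitals. The first 3 genes had the lowest ratios of knockdown over control in SKM-1 among the matched members, the next 3 were higher there, RPS6 and RPL3 differed between lines, and RPS26 has no such run.
RPS19 (chr19:41860235-41860274, plus strand): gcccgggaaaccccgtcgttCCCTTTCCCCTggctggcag
RPS16 (chr19:39435930-39435969, minus strand): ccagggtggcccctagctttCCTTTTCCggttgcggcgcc
RPL13A (chr19:49487588-49487627, plus strand): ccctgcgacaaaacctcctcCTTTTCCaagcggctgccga
RPS13 (chr11:17077648-17077687, minus strand): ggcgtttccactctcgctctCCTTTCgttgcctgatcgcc
RPSA (chr3:39406700-39406739, plus strand): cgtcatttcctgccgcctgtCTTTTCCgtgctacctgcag
RPS12 (chr6:132814549-132814588, plus strand): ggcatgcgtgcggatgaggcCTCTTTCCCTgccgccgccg
RPS6 (chr9:19380217-19380256, minus strand): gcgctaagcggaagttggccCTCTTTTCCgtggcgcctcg
RPL3 (chr22:39319604-39319643, minus strand): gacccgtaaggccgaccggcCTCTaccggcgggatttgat
RPS26 (chr12:56041898-56041937, plus strand): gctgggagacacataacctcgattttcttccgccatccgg
RPS19, with the lowest ratio in SKM-1, and RPS13, with the highest, both carry a run, of 11 bases (at 1 of its 2 annotated starts) and 6 bases. RPL3 has a run of 4, one short of the length counted. In SKM-1 the median log2 ratio of knockdown over control was -0.39 for the 46 members with a run and -0.39 for the 16 matched members without one. In NOMO-1 these medians were 0.23 and 0.29, and in MOLM-14 0.013 and 0.0053. A run was counted only from the exact annotated base, so a start annotated slightly off would count as without one. The medians therefore cannot show whether the motif went with the ratio.

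The first question was how much of the messenger RNA in each library came from these genes. In MOLM-14 they took 8.67% of reads in the knockdown library (exact Clopper-Pearson 95% interval 8.67% to 8.68%) and 8.54% in the control (8.53% to 8.55%). In NOMO-1 the shares were 6.08% in the knockdown library (6.07% to 6.09%) and 5.09% in the control (5.09% to 5.10%). In SKM-1 they were 4.55% in the knockdown library (4.54% to 4.55%) and 6.25% in the control (6.24% to 6.25%). The knockdown share was thus 1.02, 1.19 and 0.728 times the control share in the 3 lines. The intervals cover counting error only, and with 1 library per line and condition the differences have no replicate check. In RNA from whole cultures, fewer cells of a kind and less of a transcript per cell cannot be told apart, and a share says nothing of the total RNA of a cell. The 13 mitochondrially encoded protein genes took 6.16%, 7.86% and 8.08% of reads in the MOLM-14, NOMO-1 and SKM-1 knockdown libraries, against 5.40%, 7.49% and 8.30% in their controls.

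**Figure D1:**
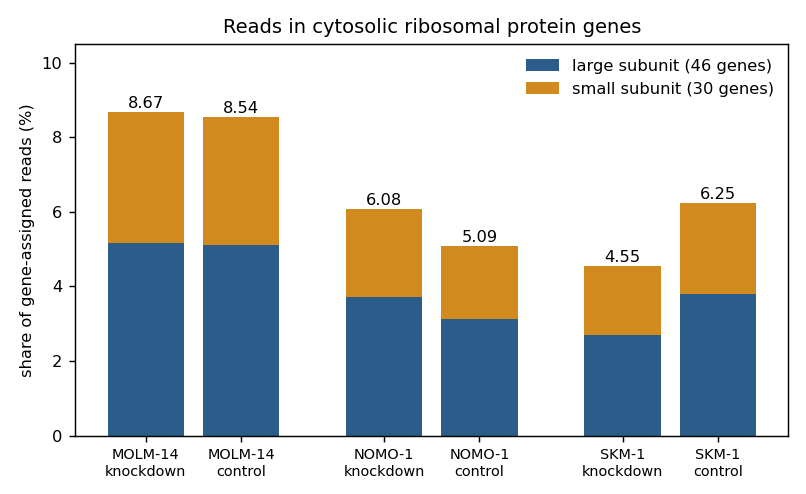
Share of gene-assigned reads (%) in the 76 cytosolic ribosomal protein genes, 1 bar per library, split into large and small subunit. Both MOLM-14 bars lie above 8.5%, the NOMO-1 knockdown bar (6.08%) lies above its control (5.09%), and the SKM-1 knockdown bar (4.55%) lies below its control (6.25%).

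Large and small subunit genes kept nearly the same proportion to each other. The summed normalized count of the 46 large subunit genes was 1.47, 1.58 and 1.46 times that of the 30 small subunit genes in the MOLM-14, NOMO-1 and SKM-1 knockdown libraries, against 1.49, 1.59 and 1.54 times in their controls. Per kilobase of coding length, the median large subunit gene of MOLM-14 stood at 96607 normalized counts in the knockdown library and 98630 in the control, and the median small subunit gene at 95584 in the knockdown library and 93397 in the control. In NOMO-1 the large and small subunit medians were 62288 and 62156 in the knockdown library, against 51188 and 53817 in the control. In SKM-1 they were 44566 and 46939.6 in the knockdown library, against 65674 and 72493 in the control.

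The next question was how the genes differed between the knockdown and the control library of each line. The 3 lines gave 3 pictures. In MOLM-14 the 76 genes stayed close to their control level, with a median log2 ratio of 0.0071 and a range of -0.21 to 0.17, 42 higher and 34 lower. In NOMO-1 75 of the 76 were higher in the knockdown library, with a median of 0.23 and a range of -0.021 to 0.58. In SKM-1 68 were lower and 8 higher in the knockdown library, with a median of -0.42 and a wider range, -1.38 to 0.47. The median over all 19575 genes was 0, -0.00027 and -0.012 in the 3 lines, so the ribosomal protein genes lay apart from it in NOMO-1 and SKM-1. Their medians still lay between the quartiles of all tested genes, -0.38 and 0.32 in NOMO-1 and -0.66 and 0.60 in SKM-1. The spread of the log2 ratio over the 76 genes (SD) was 0.39 in SKM-1, against 0.067 in MOLM-14 and 0.11 in NOMO-1.

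**Figure D2:**
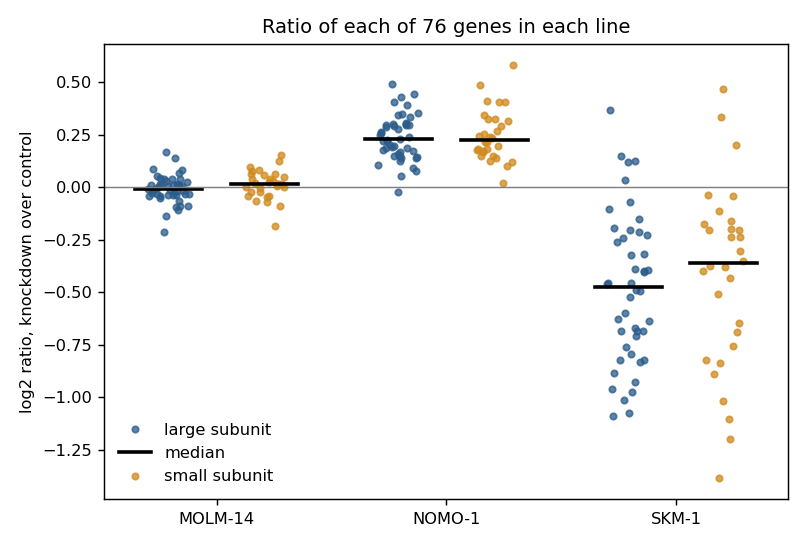
Log2 ratio of knockdown over control for each of the 76 genes in each line, 1 point per gene, large subunit in blue and small subunit in orange, with black bars at the medians. Points lie tightly around 0 in MOLM-14, nearly all above 0 in NOMO-1 and mostly below 0 with a wide spread in SKM-1, where the medians are -0.47 (large) and -0.36 (small).

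At a 1.2-fold difference in normalized count, a description rather than a test, 0 of 76 members were higher and 0 lower in the MOLM-14 knockdown library, where 19.0% of all tested genes were higher and 20.8% lower. In NOMO-1, 30 members were higher and 0 lower, against 29.0% and 31.7% of all tested genes. In SKM-1, 3 members were higher and 49 lower, against 36.7% and 39.1%. As shares of the members these are 39.5% higher in NOMO-1 and 64.5% lower in SKM-1. Among 7671 other genes with a mean of 1000 or more, 7.50% were higher and 12.1% lower in MOLM-14. In NOMO-1 23.7% of them were higher and 28.2% lower, and in SKM-1 34.8% and 36.3%. Both subunits were involved: in NOMO-1 19 of 46 large and 11 of 30 small subunit genes passed 1.2-fold, and in SKM-1 32 of 46 and 17 of 30. The medians for large and small subunit were -0.47 and -0.36 in SKM-1. They were 0.23 and 0.23 in NOMO-1, and -0.0067 and 0.017 in MOLM-14.

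Across the 3 lines no member passed the test for the knockdown. In limma, blocked by line, on log2(normalized count + 1) and with Benjamini-Hochberg adjustment over all tested genes, 0 of 76 members and 0% of all tested genes passed an adjusted p of 0.05. At an unadjusted p under 0.05 there were 0 members higher and 0 lower, against 1.59% and 2.89% of all tested genes. The smallest unadjusted p among the members was 0.103, and their adjusted p ran from 0.779 to 0.995. On recovered reads, edgeR's quasi-likelihood test called 0 members and 0% of genes, and DESeq2 called 0 members and 0.279% of genes, and neither had a member at an unadjusted p under 0.05. The mean log2 change was higher for 26 members and lower for 50, with a median of -0.062. 67 of the 76 were higher in NOMO-1 and lower in SKM-1, which nearly follows from the 75 higher in NOMO-1 and the 68 lower in SKM-1. Only 5 had the same sign in all 3 lines, RPSA, RPS12, RPL34 and RPL24 higher and RPL3 lower. Neither count was made over all tested genes. The SD of a member's log2 ratio over the 3 lines had a median of 0.34.

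RPSA, the small subunit protein also known as the laminin receptor, came nearest to a shared direction. It had 30204 normalized counts in the MOLM-14 knockdown library against 28469 in the control, 30304 against 20203 in NOMO-1, and 22879 against 18133 in SKM-1. The knockdown library was the higher one of each pair, but the MOLM-14 control lay above the SKM-1 knockdown library, so that the groups overlapped. Its mean log2 change was 0.34 ± 0.25 (SD, n = 3 lines; SE in limma 0.17, adjusted p = 0.779). RPS12, a small subunit protein, had 76416 against 75644 in MOLM-14, 34790.1 against 27903 in NOMO-1 and 36940.0 against 32118 in SKM-1, a mean of 0.18 ± 0.15 (limma adjusted p = 0.783). RPL3, which lies beside the centre that joins amino acids, was the 1 member lower in every line, at 175662 against 182018 in MOLM-14, 77913 against 79076 in NOMO-1 and 57245 against 91905 in SKM-1. Its mean log2 change was -0.25 ± 0.37 (limma adjusted p = 0.782), and nearly all of it came from SKM-1.

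In SKM-1 the lowest members shared a place in the genome. RPS19, a small subunit protein and the gene most often mutated in Diamond-Blackfan anemia, had 15782 normalized counts in the knockdown library against 41205 in the control, a log2 ratio of -1.38 (exact 95% interval -1.41 to -1.36, counting error only). RPS16, which sits at the decoding side of the small subunit, had 25112 against 57551 (-1.20). RPL13A, a large subunit protein, had 18970.4 against 40305 (-1.09). All 3 lie on the long arm of chromosome 19, and in MOLM-14 the same genes had ratios of -0.062 to 0.032. RPL18, RPL28 and RPS9, on the same arm, were also lower in SKM-1, and all 8 members there lay between -1.38 and -0.69, with a median of -1.05.

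Other genes of that arm were lower in SKM-1 as well. The median log2 ratio of the 707 other tested genes there was -0.66, while on the short arm 587 other genes had a median of -0.00075 and the 4 members there one of -0.61. On chromosome 11 the picture was the other way round. The 991 other tested genes of that chromosome had a median of 0.50 in SKM-1, and the 5 members there a median of 0.13. RPS13, a small subunit protein of chromosome 11, had the highest ratio of all members, with 25311 in the knockdown library against 18274 in the control (0.47). RPLP2, a protein of the acidic stalk, had 34664 against 31197 (0.15), RPL27A was at 0.13, RPS3 at -0.11 and RPS25 at -0.35. On chromosome 8 the 4 members RPL7, RPL8, RPL30 and RPS20 lay between -0.93 and -0.71, and 717 other genes had a median of -0.26.

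Set against the median of its 20 nearest tested protein-coding genes, a member's ratio in SKM-1 was lower where its neighbours were lower. Over the 76 members, which share the same 2 libraries and partly the same neighbours, the Spearman correlation was 0.62 and the Pearson correlation 0.66. In MOLM-14 these were 0.082 and 0.035, and in NOMO-1 -0.031 and -0.054. With each member's ratio taken less the median of its neighbours, the SD in SKM-1 was 0.33 and the median over members -0.38, so position went with part of the spread while the median stayed. Without the 8 members of the long arm of chromosome 19 the SKM-1 median was -0.39. RPL35A, a large subunit protein of chromosome 3, shows the remainder: it had 23282 in the knockdown library against 49032 in the control, a ratio of -1.07, with its neighbours at -0.47. RPL10, a late-joining large subunit protein mutated in some T-cell leukemias, lies on the X chromosome and had 18705 against 36380.3, a ratio of -0.96, with its neighbours at -0.053. Whether the SKM-1 libraries differ in their chromosomes, or only in their transcripts, was not tested.

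**Figure D3:**
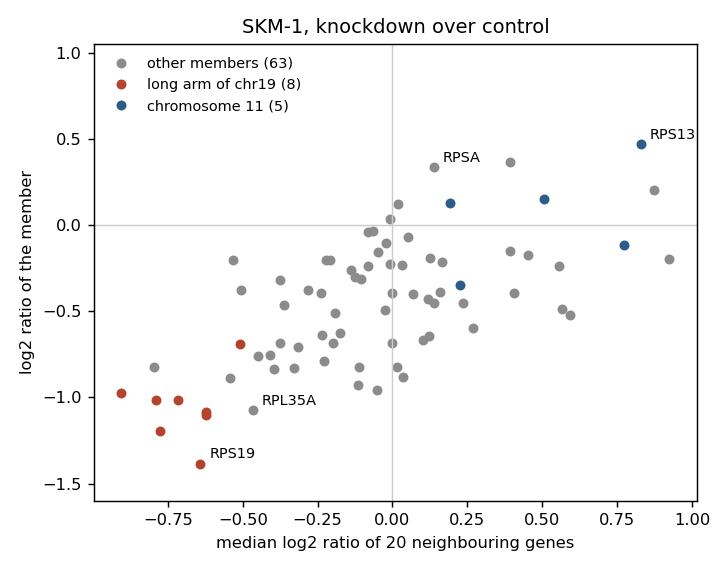
Log2 ratio of each member in SKM-1 (y axis) against the median log2 ratio of its 20 nearest protein-coding genes (x axis), 1 point per gene. The 8 members on the long arm of chromosome 19 (red) lie at the lower left, between -1.38 and -0.69 on the y axis, and the 5 on chromosome 11 (blue) lie to the right, with RPS13 at the top at 0.47.

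The 3 members at least 1.2-fold higher in SKM-1 were RPS13, RPL23A and RPSA. RPL23A, a large subunit protein near the exit of the peptide tunnel, had 1184 normalized counts in the knockdown library against 918 in the control (0.37), 1254 against 1015 in NOMO-1 (0.30) and 842 against 895 in MOLM-14 (-0.088). More of the reads of its family stand in the rows of its pseudogenes than in its own, and those rows went the other way, with log2 ratios of -0.71 in SKM-1, -0.26 in NOMO-1 and -0.14 in MOLM-14. Gene and pseudogene rows together were lower in the SKM-1 knockdown library, at 2286 against 2726 (-0.25), and nearly level in NOMO-1, at 2421 against 2413 (0.0047). The direction of RPL23A is therefore uncertain. RPS12 followed at 0.20, in a region of chromosome 6 where its 20 neighbours had a median of 0.87. These genes were high in SKM-1 relative to the other members. RPS13, RPL23A and RPS12 nevertheless lay below the medians of their neighbours, which were 0.83, 0.39 and 0.87.

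In NOMO-1 the members lay close together, all but RPL3 above their control. RPSA led, at just under 1.5-fold. RPL41, which encodes a very short peptide of the large subunit, had 4254 in the knockdown library against 3026 in the control (0.49, exact 95% interval 0.43 to 0.56), and RPL12, at the base of the stalk, had 16891 against 12416 (0.44). RPS26, a small subunit protein mutated in some cases of Diamond-Blackfan anemia, had 331 against 236 (0.49), with a wide interval of 0.25 to 0.73 because few reads were assigned to it. At the low end RPL3 was at -0.021, RPS24 at 0.024, RPL28 at 0.056 and RPL8 at 0.080. RPS24, for example, had 57895 in the knockdown library against 56949 in the control. The ratio was lower for more abundant members, with a Spearman correlation of -0.51 between the ratio and the mean level over the 76 genes, against -0.33 in MOLM-14 and -0.13 in SKM-1.

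In MOLM-14 the 2 highest and the 2 lowest members were all among those with few reads. RPL21 had 1299.7 normalized counts in the knockdown library against 1158 in the control (0.17, exact 95% interval 0.05 to 0.29), and RPS10 307 against 275 (0.16, interval -0.09 to 0.41). RPL36A had 810.1 against 939 (-0.21, interval -0.36 to -0.07) and RPS26 318 against 361 (-0.18, interval -0.41 to 0.05). Intervals of RPS10 and RPS26 include 0. Among members with more reads RPLP1, a stalk protein, had 83689 against 91884 (-0.13), RPL6 43134 against 46398 (-0.11), RPL26 7919 against 7189.5 (0.14) and RPS29 29038 against 26634 (0.12). All of these were under 1.2-fold.

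The proteins of the stalk, which recruits elongation factors to the large subunit, differed from one another in SKM-1. RPLP0, its anchor, had 143665, 67955 and 37976 in the MOLM-14, NOMO-1 and SKM-1 knockdown libraries, against 135498, 55217 and 47433 in their controls. RPLP1 had 83689, 55617 and 58275, against 91884, 50229.7 and 92559.7, and RPLP2 had 52266, 32996 and 34664, against 55502, 30925 and 31197. In SKM-1 their ratios were thus -0.32, -0.67 and 0.15, and in NOMO-1 0.30, 0.15 and 0.094. None of the 3 passed the limma test over lines.

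Other members have a known part in p53 control or in disease. RPL5, which binds MDM2 together with RPL11 and 5S ribosomal RNA, had 86075, 70334 and 45383 in the MOLM-14, NOMO-1 and SKM-1 knockdown libraries, against 90124, 61596 and 63641 in their controls. RPL11 had 86376, 57049.6 and 47758, against 85850.3, 48940.4 and 62444. Their ratios in SKM-1 were -0.49 and -0.39, near the member median of -0.42. RPL26, which also binds p53 messenger RNA, was lower in SKM-1, at 2167 against 3485 (-0.69). RPS14, whose loss in the 5q deletion of myelodysplasia blocks red cell production, had 41269 against 46479 there (-0.17). RPL22, recurrently deleted or mutated in leukemias, had 16994 against 19548 (-0.20), and RPS27A, made as a fusion to ubiquitin, 19132 against 22503 (-0.23). RPS2 and RPS3, which line the entry of the messenger RNA channel, were at -0.51 and -0.11.

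Levels of different members were compared per kilobase of coding length, as means over the 6 libraries. Reads of a gene may also lie outside its coding part, which this length leaves out, so the order depends on the length used. RPL37, for example, has 291 coding bases in an annotated transcript of 7686. The highest means were those of RPL37 (277862 normalized counts per kilobase), RPS18 (225502), RPLP1 (210651) and RPS24 (178447), but their order differed between lines. RPL37 was highest in both NOMO-1 libraries, at 324770.0 in the knockdown library and 274723 in the control. RPS18 was highest in both MOLM-14 libraries, at 393721 and 417842, and RPLP1 in both SKM-1 libraries, at 170396 and 270642. The lowest means were those of RPS10 (348), RPL17 (637), RPS26 (788) and RPL21 (1970.3), and RPS10, RPL17 and RPS26 were the lowest 3 in every library. Whether these genes have few transcripts, or lost reads to overlapping genes or to several matches, was not tested. Many members have copies elsewhere in the genome with which they can share reads. The table holds 461 rows named as pseudogenes of ribosomal proteins, 457 of them of a member and covering 70 of the 76 members, and 185 of these rows passed the filter of the test. Over the 70, a median of 2.83% of a family's normalized counts stood in its pseudogene rows.

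For 8 members the pseudogene rows held most of the counts. Among them RPL39 had 96.1% of its family's counts there, RPS10 93.5% and RPS3A 93.1%, and the share was lower for RPS23 (59.2%), RPL23A (58.0%), RPSA (51.0%) and RPS7 (50.7%). Processed pseudogenes lack introns and can match the spliced messenger RNA base for base, so which row a read reached depends on how reads with several matches were counted, which the labels do not state. The levels of these members are therefore uncertain. The pseudogene rows of RPSA, which hold about as many reads as the gene, had log2 ratios of 0.055, 0.56 and 0.25 in the 3 lines, and RPSA itself 0.09, 0.58 and 0.34. Those of RPL23A had the opposite sign to the gene in NOMO-1 and SKM-1. With gene and pseudogene rows summed, the medians over members were 0.0028, 0.22 and -0.41.

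**Figure D4:**
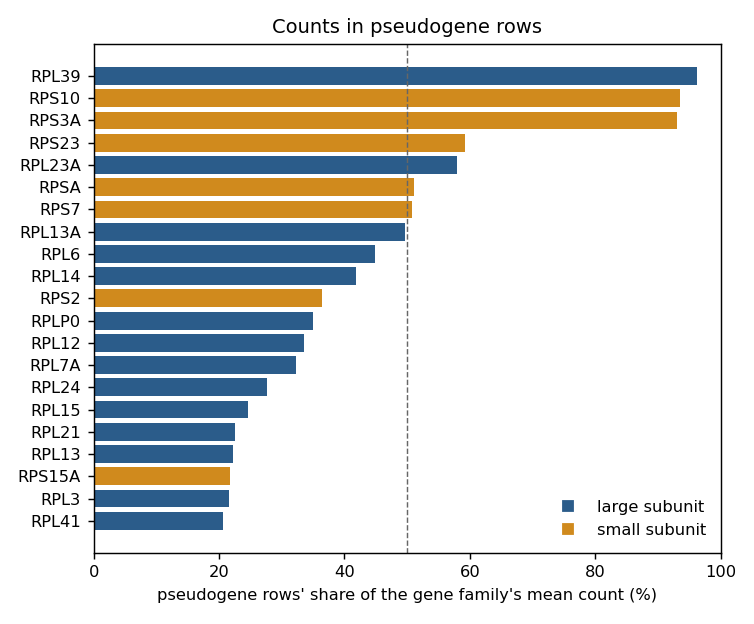
Share of each family's mean normalized count that stands in rows named as its pseudogenes (%), for 21 of the 22 members above 20%, large subunit in blue and small subunit in orange. The dashed line marks 50%, which 7 of those shown pass, led by RPL39 at 96.1%.

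The lines themselves differed in their level of these genes, and the 2 libraries of a line served as its replicates with the shRNA as a term in the same limma fit. SKM-1 lay below MOLM-14 for 75 of 76 members, with a median log2 difference of -0.69. In this contrast 0 members were called higher and 15 lower at an adjusted p under 0.05, against 8.21% and 8.06% of all tested genes. The lowest were RPL6 (-1.79, SE 0.31, limma adjusted p = 0.0260), RPLP0 (-1.72, SE 0.22, adjusted p = 0.0125) and RPS18 (-1.55, SE 0.22, adjusted p = 0.0159). RPS18 had 54564 and 73623 normalized counts in the SKM-1 knockdown and control libraries, against 179537 and 190536 in those of MOLM-14, with no overlap. RPL6 and RPLP0 lie on chromosome 12, and their 20 neighbours had medians of -1.51 and -1.33 in the same contrast. RPL23A was the 1 member higher in SKM-1 (0.26, SE 0.25, adjusted p = 0.508).

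MOLM-14 lay above NOMO-1 for 74 of 76 members, with a median log2 difference of 0.71. Here 11 members were called higher and 0 lower, against 5.42% and 8.04% of all tested genes. RPS6, the substrate of S6 kinase downstream of mTOR, differed most (1.81, SE 0.20, limma adjusted p = 0.0095), followed by RPS18 (1.64, adjusted p = 0.0153) and RPL12 (1.5, adjusted p = 0.0282). RPL23A (-0.38) and RPS4X (-0.11) were the 2 with a lower mean in MOLM-14, neither of them called. Because the spread is shared with the SKM-1 pair, whose libraries stood apart, the contrast was also fitted without that pair. It then called 48 members higher and 0 lower, the 11 among them, against 15.4% and 18.2% of all tested genes. The calls between lines rest on few libraries: without any 1 library of MOLM-14 or of NOMO-1, 0 members were called in each of the 3 contrasts. Without the SKM-1 knockdown library SKM-1 over MOLM-14 called 14 members lower (12 of them also with all libraries), and without the SKM-1 control 47 (15 of them also with all). For SKM-1 over NOMO-1 these fits called 2 higher and 0 lower, and 1 higher and 14 lower.

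Between SKM-1 and NOMO-1 the members had no common direction, with 38 higher, 38 lower and a median of 0.0052. 1 member was called higher and 0 lower, against 6.04% and 7.87% of all tested genes. That 1 was RPS6, at 107417 and 126470.0 normalized counts in the SKM-1 knockdown and control libraries and 51416 and 44223 in those of NOMO-1 (1.29, SE 0.20, limma adjusted p = 0.0194). RPL15 (0.52, limma adjusted p = 0.188) and RPLP1 (0.47, adjusted p = 0.280) came next without being called, and RPL21 had the lowest mean difference (-1.01, adjusted p = 0.0648, also not called). Within a condition there was a direction, and it depended on the library. Between the knockdown libraries of the 2 lines 13 members were higher and 63 lower in SKM-1, with a median of -0.35. Between their controls 63 were higher and 13 lower, with a median of 0.32. For SKM-1 over MOLM-14 the medians between knockdown libraries and between controls were -0.89 and -0.45, and for MOLM-14 over NOMO-1 0.58 and 0.82.

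RPS6 lies on the short arm of chromosome 9, in a region where some genes, but not all, had few reads in NOMO-1. Of its 20 nearest tested protein-coding genes, 9 were under 10 normalized counts in both NOMO-1 libraries, against 0 in SKM-1 and 3 in MOLM-14. BNC2, CDKN2A and DMRTA1 were under 10 in both MOLM-14 and NOMO-1. FOCAD, for example, had 0.911 in the NOMO-1 knockdown library and 0 in its control, against 2039 and 2436 in SKM-1. Others of the 20 had reads in the NOMO-1 knockdown and control libraries: HAUS6 1674 and 3024, DENND4C 813 and 1059, and MLLT3 381 and 474. PLIN2 was low there, at 7.30 and 17.9. RPS6 itself stayed at 51416 and 44223 in NOMO-1, against 167530.0 and 167077 in MOLM-14. Whether a copy of this region is missing in NOMO-1 was not tested.

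**Figure D5:**
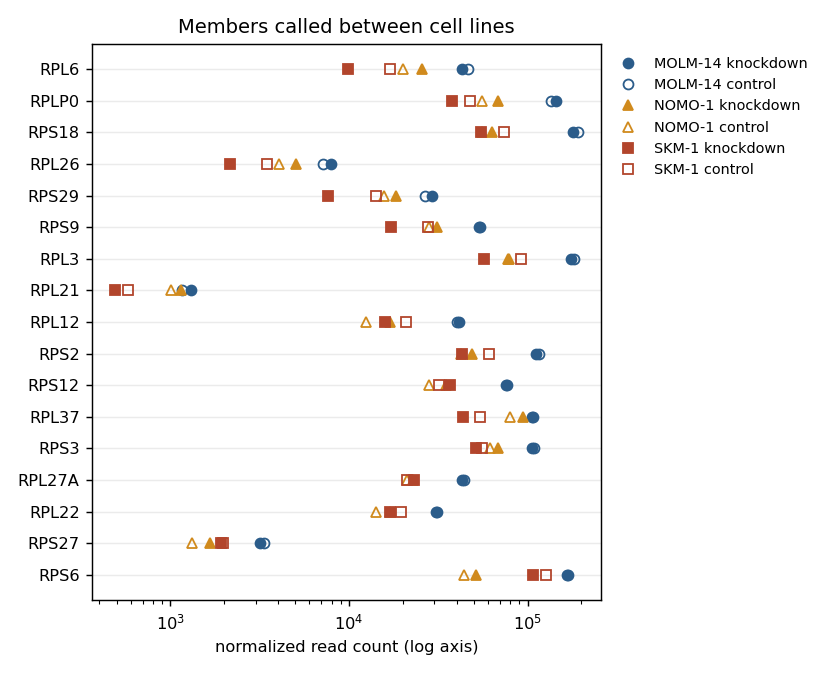
Normalized read counts (log axis) of 17 of the 18 members called between at least 1 pair of lines, with filled symbols for knockdown and open symbols for control libraries. MOLM-14 (circles) lies to the right of the other lines for every gene shown, and RPS6 is the 1 gene called between SKM-1 (squares) and NOMO-1 (triangles).

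Ribosomal proteins outside the symbol rule did not all go with the members. FAU, which encodes a ubiquitin-like protein fused to eS30 and lies on chromosome 11, had 8314, 9141 and 9509 in the MOLM-14, NOMO-1 and SKM-1 knockdown libraries, against 7629, 6847 and 5379 in their controls. It was higher in each knockdown library, at 0.12, 0.42 and 0.82, and not called (limma adjusted p = 0.779). Of 7 tested paralogs outside the rule 6 were lower in SKM-1, with a median of -1.07. Among them RPL22L1, the paralog of RPL22, had 696 in the SKM-1 knockdown library against 2236 in the control (-1.68), RPS27L, a p53 target, was at -1.26 and RPL36AL at -1.21.

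Other parts of the ribosome pathway were described by their counts, and 0 genes of any list were called by limma over the 3 lines. For 22 other tested messenger RNAs a TOP start was taken from a fixed list and not looked up in the RefSeq table. Most were of translation factors, but VIM (vimentin), NAP1L1 (a histone chaperone), HNRNPA1 and TPT1 were among them. Of the 22, 15 were higher in NOMO-1 (median 0.11) and 16 lower in SKM-1 (median -0.35), and 15 were lower in MOLM-14 (median -0.027). EEF2, the factor that moves the ribosome along, was lower in each knockdown library, at -0.21, -0.34 and -0.35. Of 8 small nucleolar RNA host genes likewise only listed with such a start, 7 were higher in NOMO-1 (median 0.35) and 6 lower in SKM-1 (median -0.37). Among them SNHG6 was at -0.39, -0.73 and -2.69. Genes of ribosome assembly and export had 21 of 24 members higher in NOMO-1 (median 0.47) and 14 lower in SKM-1 (median -0.090). SBDS, which readies the large subunit for translation, was at -0.046, 0.48 and 1.07.

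Of 15 regulators of ribosome production, 10 were lower in MOLM-14 (median -0.047), 8 higher in NOMO-1 (median 0.0030) and 11 lower in SKM-1 (median -0.34). MYC, which raises transcription of ribosomal protein genes, had 25149, 9599 and 7770.1 in the MOLM-14, NOMO-1 and SKM-1 knockdown libraries, against 30769, 12127 and 19954 in their controls, ratios of -0.29, -0.34 and -1.36 (limma adjusted p = 0.779). MYC was thus lower in NOMO-1, where nearly all members were higher, and in SKM-1, where most members were lower. In MOLM-14 it was lower while the members stayed close to their control level. A link between MYC and the members was not tested. Of the 4 genes of the p53 arm, MDM2 was at -0.28, -0.24 and -0.26, and CDKN1A, the cell cycle inhibitor p21, at -0.43, -0.47 and 1.87. The mitochondrial ribosome, built from separate genes, gave the same order of lines: 74 tested genes had medians of 0.13, 0.36 and -0.20, with 61 and 67 higher in MOLM-14 and NOMO-1 and 51 lower in SKM-1.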

How the data were processed

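RNA was sequenced from 6 libraries as paired 100 bp reads from a TruSeq kit, per the labels. The deposited signal values are reads per gene, scaled by the authors with 1 factor per library, and the deposited log2 values are a transformation of them by the authors. The submitters' processing notes name build hg19, DESeq2 1.12.4, HTSeq 0.6.1p1, STAR and bcl2fastq 1.8.4. For strand, annotation and multiply matching reads, the settings were not given in the sources used here. Reads of overlapping and antisense genes cannot be told apart.

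Whole reads were recovered for 100% of values (tolerance 0.001) and gave depths and exact 95% intervals of counting error. Genes with a mean of 10 or more were tested with limma 3.58.1 in R 4.3.3 (trend, two-sided, pseudocount 1, which understates changes of low genes, 2 residual and 2.81 prior degrees of freedom), and with edgeR 4.0.16 and DESeq2 1.42.0 on recovered reads, all with Benjamini-Hochberg adjustment. The cell line pairs the libraries, whose deviations from the group means correlated at 0.850, 0.863 and 0.710.

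Coding length, chromosome and gene order came from GENCODE 29 (GRCh38), start sequences from RefSeq. Members and lists were chosen with earlier results of these data known. Named members are those farthest from their line's median, with the smallest p, at the ends of a line contrast or of the levels, or with a fixed role. Others (those of a chromosome, a count of 5 or fewer, or most pseudogene counts) were named after their values were seen. Some members, counted in every total, are not reported here by name. The steps were tested on simulated data.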

Additional observations from a re-analysis of the deposited data

Results flagged for a closer look

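The direction of the cytosolic ribosomal protein genes differed between lines under the same comparison. Of 76 members 67 were higher in the NOMO-1 knockdown library than in its control and lower in the SKM-1 knockdown library than in its control. This count nearly follows from the 75 higher in NOMO-1 and the 68 lower in SKM-1, and was not made over all tested genes. The median log2 ratio of knockdown over control was 0.23 in NOMO-1 and -0.42 in SKM-1. The difference was not tested, because each line has 1 library per condition.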

How the results depend on the processing

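Counts over the 3 lines did not depend on the settings tried: 0 members were called, and 0 had an unadjusted p under 0.05, with pseudocounts of 0.5 and 8, no filter or a filter of 50, total-count, quantile or TMM scaling, the authors' transformed values, no replicate block (0 against 0 with it), eBayes without trend, edgeR, DESeq2, or without any 1 line. No scaling moved the median of all genes by more than 0.1 in any line.

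Calls between lines depended on the settings more. For SKM-1 over MOLM-14 (15 members), SKM-1 over NOMO-1 (1) and MOLM-14 over NOMO-1 (11), eBayes without trend called 2, 0 and 2, and quantile normalization 8, 2 and 6. With no filter the first called 6 and the third 4. In fits chosen after seeing the data that leave out 1 line or 1 library, the counts ran from 0 to 47, from 0 to 15 and from 0 to 48. They were 0 in all 3 contrasts without any 1 library of MOLM-14 or of NOMO-1. Without the SKM-1 knockdown library they were 14, 2 and 48, and without the SKM-1 control 47, 15 and 48. Without the MOLM-14 pair SKM-1 over NOMO-1 had 0, and without the NOMO-1 pair SKM-1 over MOLM-14 had 0. These fits have fewer residual degrees of freedom.

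The median of NOMO-1 stayed above 0 and that of SKM-1 below 0 under each setting, while that of MOLM-14 ran from -0.02 to 0.04. The SKM-1 median was -0.30 under quantile normalization, where 5 members were at least 1.2-fold higher. At 1.5-fold 0 members were higher in NOMO-1, and 30 were lower and 0 higher in SKM-1. With no minimum on the mean, 1 gene was lower in NOMO-1. Large minus small subunit in SKM-1 was -0.11, and -0.22 without the long arm of chromosome 19, a setting added after seeing the data.

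Without symbols ending in A or X, the shares of reads in the knockdown and control libraries were 7.64% and 7.54% in MOLM-14, 5.25% and 4.39% in NOMO-1, and 3.99% and 5.43% in SKM-1. In the same order of lines, with pseudogene rows added after seeing the data, they were 10.2% and 10.03%, 7.16% and 5.99%, and 5.37% and 7.31%. Of reads outside mitochondrial genes they were 9.24% and 9.03%, 6.60% and 5.51%, and 4.95% and 6.81%. The cause of these differences beyond the change of genes counted was not tested.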
